A study of Mus musculus with 42 samples.

Results

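The genes described here carry transforming growth factor beta (TGF-beta) signals into and out of T cells: the ligand Tgfb1, its surface docking proteins Lrrc32 and Nrp1, the receptors Tgfbr1, Tgfbr2 and Tgfbr3, the signal transducer Smad3, the inhibitor Smad7 and the transcriptional repressors Ski and Skil. They were chosen by name, as the rows of the raw count table whose Ensembl identifier maps to one of these symbols, and all 10 were found among the 46603 genes of the table. These genes and the list of other pathway genes were chosen with earlier results of these data known. Their counts beside the share of all genes are therefore a description only. A Foxp3-GFP reporter was used to sort mouse regulatory T cells (Treg) apart from the conventional CD4+ fraction (Tconv), and bulk RNA was sequenced. All animals carried DEREG, a transgene that expresses the reporter under Foxp3 control. TNFdARE DEREG mice, in which deletion of an AU-rich element stabilises the Tnf transcript, were compared with WT DEREG littermates. Cells came from the ileum, from the mesenteric lymph node that drains it, from the synovium of the ankle, and from its draining nodes, inguinal and popliteal (the joint nodes). The age of the animals and the number of animals behind a library are not given in the labels used here. The 42 libraries formed 16 groups of cell type, site and genotype and came from 3 independent experiments lettered A to C. A full group held 3 libraries, with these exceptions: experiment A gave no TNFdARE mesenteric library (2 per sort), experiment C gave neither WT synovial Treg nor TNFdARE synovial Tconv (2 libraries each), and WT synovial Tconv is 1 unreplicated library from experiment A. The Tconv gate is set by a transgenic reporter and not by the Foxp3 gene itself.

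TGF-beta is secreted in a latent form held closed by its own propeptide. The protein encoded by Lrrc32, known as GARP, tethers latent TGF-beta to the surface of activated Treg, and the integrin made of the Itgav and Itgb8 products frees it there. Active ligand binds the Tgfbr2 product, which recruits and phosphorylates the Tgfbr1 product, and the Smad3 protein then enters the nucleus, while Smad7 blocks the receptor and Ski and Skil proteins hold Smad targets off. In T cells the pathway supports Foxp3 expression and the gut-retention integrin CD103, and it restrains effector differentiation.

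Libraries held between 18261064 and 30301202 counts, and replicates of a group correlated at 0.98 to 0.995 in the nodes, 0.916 to 0.989 in the ileum and 0.875 to 0.964 in the synovium (Pearson's r of log2 values over genes). Foxp3 was higher in the Treg libraries than in the Tconv libraries of its site in the ileum and both node sites, where Tconv reached at most 199.8 CPM (CPM are counts relative to library size, with trimmed-mean scaling over all 42 libraries). In the synovium the TNFdARE Tconv libraries, at 615 and 619 CPM, lay above the lowest Treg library (566 CPM, WT B). The summed CPM of 4 Treg markers (Foxp3, Il2ra, Ctla4 and Ikzf2) lay between 2786 and 6796 in Treg and between 31.4 and 3273 in Tconv, and the T cell markers Cd3e, Cd3g and Cd4 were present in all libraries. Some libraries stood apart: the WT synovial Tconv library held 931 CPM over 5 markers of CD8 and NK cells, against 32.8 and 86.1 CPM in the TNFdARE synovial Tconv libraries. The ileal Treg libraries of experiment A held 6567 CPM (TNFdARE) and 2382 CPM (WT) over 5 plasma cell markers, against 486 to 1027 CPM in the other ileal Treg libraries. Synovial Treg held 12960 and 15960 CPM over 5 fibroblast genes in WT and 1440 to 6102 CPM in TNFdARE. P-values measure the spread between these libraries, whose number of animals is unknown, and in bulk RNA fewer cells of a type cannot be told apart from less RNA per cell.

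The 10 transcripts differed in level and in how much that level moved across the 16 groups. Levels of different genes were compared only in the authors' deposited FPKM, which divide by gene length. On that scale the median over the group means was highest for Tgfbr2 (79.4 FPKM) and Tgfb1 (58.4 FPKM). Smad7, Ski, Skil, Nrp1 and Lrrc32 followed at 38.7, 31.5, 29.02, 24.2 and 20.4 FPKM. Smad3, Tgfbr1 and Tgfbr3 were lowest at 14.2, 11.04 and 7.90 FPKM. Lrrc32 and Nrp1 moved most: the group means of Lrrc32 ran from 0 CPM in WT synovial Tconv to 910.2 CPM in WT ileal Treg, and those of Nrp1 from 9.69 CPM in WT ileal Tconv to 625 CPM in TNFdARE Treg of the joint nodes. Tgfb1, Smad3, Smad7 and Ski moved least, with 2.79-fold, 2.55-fold, 3.04-fold and 2.72-fold between their highest and lowest group mean in CPM. When the 16 group means were put in order, neighbours overlapped between their libraries in 15 of 15 steps for Tgfb1, 14 for Smad7 and Ski, 13 for Smad3 and Tgfbr1, 11 for Tgfbr2 and Tgfbr3, 10 for Skil, 8 for Nrp1 and 7 for Lrrc32.

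**Figure D1:**
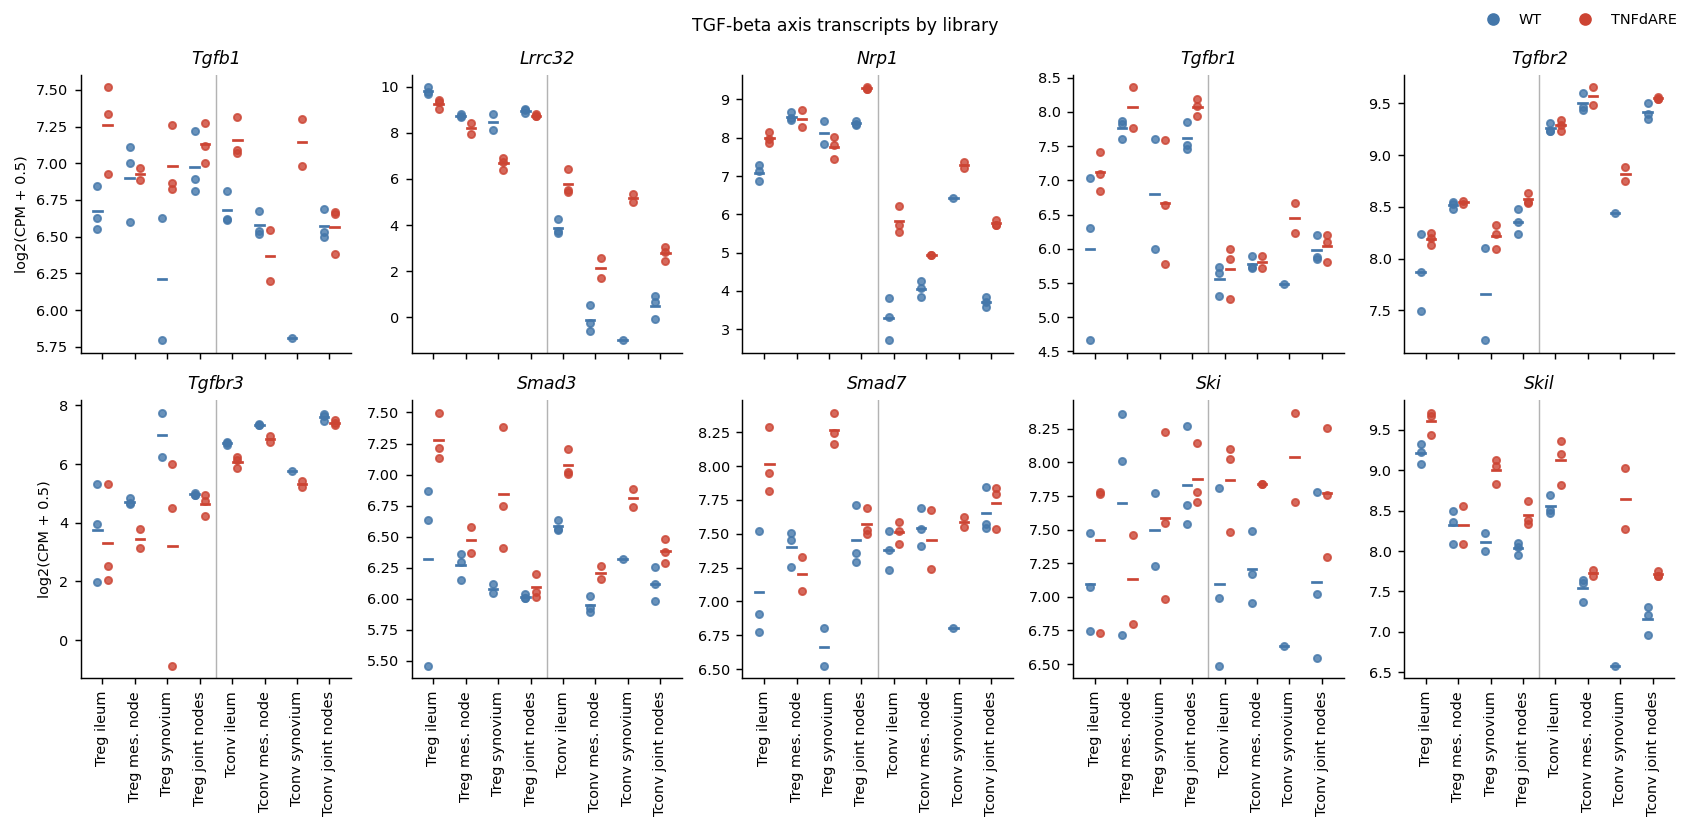
Level of each of the 10 transcripts in every library, as log2(CPM + 0.5), with Treg to the left and Tconv to the right of the grey line and sites along the x axis. Points are libraries (blue WT, red TNFdARE) and bars are group means of the plotted values; Lrrc32, Nrp1 and Tgfbr1 sit higher in Treg of the nodes, and Tgfbr2 and Tgfbr3 sit higher in Tconv of the nodes.

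The signalling receptors Tgfbr1 and Tgfbr2 act as 1 complex, yet their transcripts differed between Treg and Tconv in opposite directions, so the DNA before both starts is shown. The letters are the 250 bases upstream of the start in RefSeq's mouse promoter table (build GRCm38.p6), which held 6 of the 10 genes (Tgfb1, Nrp1, Tgfbr1, Tgfbr2, Smad3 and Ski). Both stretches lie just outside the bodies of these genes in the GENCODE M21 annotation. That of Tgfbr1 is chr4:47352972-47353221 on the plus strand, and that of Tgfbr2 is chr9:116175364-116175613 on the minus strand. Capitals mark matches, on either strand, to CAGAC (the element bound by Smad proteins), GGGCGG (the GC box), TGTGGT (Runx factors) or GTAAACA (forkhead factors, the family of Foxp3).
Tgfbr1: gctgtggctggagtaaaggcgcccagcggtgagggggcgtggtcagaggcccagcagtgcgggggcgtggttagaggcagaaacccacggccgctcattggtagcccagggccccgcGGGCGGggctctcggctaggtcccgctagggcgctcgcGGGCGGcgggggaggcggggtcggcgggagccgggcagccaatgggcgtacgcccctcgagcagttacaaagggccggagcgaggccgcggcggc
Tgfbr2: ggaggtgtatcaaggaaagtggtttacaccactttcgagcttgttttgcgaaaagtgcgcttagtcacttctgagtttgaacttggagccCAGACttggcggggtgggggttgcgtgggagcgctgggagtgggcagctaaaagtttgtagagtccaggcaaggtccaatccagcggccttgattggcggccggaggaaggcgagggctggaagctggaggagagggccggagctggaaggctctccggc
The Tgfbr1 window held 2 GC boxes and none of the other 3 motifs, and 74.8% of its bases were G or C. The Tgfbr2 window held 1 CAGAC and none of the other 3, at 58.4% G or C. Among 32807 upstream windows of this length in the table, 42.2% held CAGAC, 32.7% the GC box, 14% TGTGGT and 3.2% GTAAACA. A match describes the letters only.

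Comparing Treg with Tconv at each site asks which arms of the pathway separate the sorted populations. The docking genes Lrrc32 and Nrp1 and the receptor Tgfbr1 were higher in Treg, while the receptors Tgfbr2 and Tgfbr3 were lower, in the ileum and in both node sites. In the nodes 8 of the 10 genes passed the test at each site, in the ileum 6, and in the synovium 1. The test was edgeR's quasi-likelihood F test on counts with both genotypes weighted equally, and a gene passed when its Benjamini-Hochberg adjusted p over all genes tested was below 0.05. Over all genes tested, 43.2% passed in the joint nodes, 38.6% in the mesenteric node, 14.8% in the ileum and 1.1% in the synovium. The median log2 difference of the 10 genes was 0.43, 0.37, 0.09 and 0.33 in that order, beside 0.00, 0.02, 0.02 and 0.04 over all genes.

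Lrrc32 (ENSMUSG00000090958, chr7:98489283-98502181), which encodes the latent TGF-beta tether GARP, separated the sorts most. In the joint nodes of WT mice it stood at 524, 467 and 503 CPM in Treg and at 0.436, 1.10 and 1.38 CPM in Tconv. In TNFdARE mice the same nodes gave 419, 446 and 423 CPM in Treg and 4.94, 6.65 and 7.79 CPM in Tconv. No Tconv library came near a Treg library, and Treg were 189-fold higher (log2 difference 7.56 ± 0.15 SE, adjusted p 6.1e-14). In the mesenteric node Treg held 410.1, 428 and 456 CPM (WT) and 251 and 342.5 CPM (TNFdARE), against 0.929, 0.168 and 0.345 CPM (WT) and 2.80 and 5.37 CPM (TNFdARE) in Tconv. That is a 256-fold difference (log2 8.00 ± 0.25, adjusted p 6.9e-10). Ileal Tconv were less far below Treg. WT ileal Treg held 1013, 883 and 835 CPM and TNFdARE ileal Treg 647, 523 and 689 CPM, while ileal Tconv held 12.04, 18.7 and 12.98 CPM (WT) and 86.0, 44.8 and 42.8 CPM (TNFdARE). The ileal difference was 26.1-fold (log2 4.70 ± 0.21, adjusted p 2.1e-07).

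In the synovium the Lrrc32 call rested on a single library. WT synovial Treg held 446.5 and 276 CPM, and TNFdARE synovial Treg held 119.9, 106 and 82.6 CPM. The TNFdARE Tconv libraries held 31.8 and 40.8 CPM, and the lone WT Tconv library held no Lrrc32 count. A floor of 3 counts in that library equals 0.143 CPM, so the mean of the WT synovial Treg libraries (361.1 CPM) was at least 2523-fold higher. That bound is against a single unreplicated library and does not hold for WT synovial Tconv as a group. The fitted log2 difference of 8.67 (adjusted p 0.0016) depends on that 0 and gives no bound. In TNFdARE alone, without the WT Tconv library, the Lrrc32 difference was 1.499 ± 0.29 on the log2 scale (adjusted p 0.7), and with voom and quality weights on all synovial libraries the adjusted p was 0.092. In that TNFdARE comparison 0 of 15759 genes and 0 of the 10 passed by edgeR, with 626 genes and 2 of the 10 at an unadjusted p below 0.05, while DESeq2 called 157 genes and 2 of the 10 and voom 7 genes and 0 of the 10.

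Nrp1 (ENSMUSG00000025810, chr8:128358604-128503363) encodes neuropilin-1, a co-receptor that binds TGF-beta and is abundant on thymus-derived Treg. In the joint nodes it stood at 325, 328 and 347 CPM in WT Treg and at 11.5, 12.7 and 13.7 CPM in WT Tconv, without overlap. TNFdARE mice gave 617, 619 and 639 CPM in Treg and 52.6, 52.6 and 57.1 CPM in Tconv there. Treg were 17.6-fold higher in the joint nodes (log2 4.14 ± 0.06, adjusted p 1.5e-15), 16.7-fold higher in the mesenteric node (log2 4.06 ± 0.11, adjusted p 3.6e-10) and 7.97-fold higher in the ileum (log2 3.00 ± 0.18, adjusted p 2e-06). In the synovium the difference was 1.07 ± 0.23 (adjusted p 0.098), and WT Treg at 348 and 227 CPM stood beside 85.8 CPM in WT Tconv and 146 and 166 CPM in TNFdARE Tconv. It passed there with DESeq2 (1.14, adjusted p 0.00013).

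The 3 receptors split. Tgfbr1 (ENSMUSG00000007613, chr4:47353222-47414931), the type I kinase that phosphorylates Smad3, stood at 176, 184 and 230.3 CPM in WT Treg of the joint nodes and at 58.3, 57.2 and 73.3 CPM in WT Tconv. No libraries of the 2 sorts overlapped in the nodes, where Treg were higher by 1.86 ± 0.09 (joint, adjusted p 2.8e-10) and 2.15 ± 0.11 (mesenteric, adjusted p 3.9e-08) on the log2 scale. In the ileum the libraries overlapped, since WT Treg ran from 24.9 to 130.2 CPM and Tconv from 38.1 to 63.4 CPM, and the difference of 1.06 ± 0.30 (adjusted p 0.037) passed only narrowly. That ileal call for Tgfbr1 was lost on omission of any 1 of the 12 libraries other than TNFdARE Treg A and WT Treg C, with adjusted p up to 0.1, and without both ileal Treg libraries of experiment A (adjusted p 0.079).

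Tgfbr2 (ENSMUSG00000032440, chr9:116084293-116175360, minus strand) encodes the type II kinase that first binds the ligand, and it was lower in Treg. It stood at 327, 301.5 and 355 CPM in WT Treg of the joint nodes and at 653, 673 and 724 CPM in WT Tconv. The sorts did not overlap at any of the 4 sites. On the log2 scale Tgfbr2 was lower in Treg by -1.23 ± 0.10 in the ileum (adjusted p 1.4e-05), -1.002 ± 0.06 in the mesenteric node (adjusted p 8.4e-08) and -1.004 ± 0.05 in the joint nodes (adjusted p 6.8e-10). In the synovium the value was -0.70 ± 0.22 (adjusted p 0.26), and it passed with DESeq2 (-0.65, adjusted p 0.039) and without WT synovial Treg of experiment B (-0.92, adjusted p 0.018).

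Tgfbr3 (ENSMUSG00000029287, chr5:107106570-107289629, minus strand) encodes betaglycan, a co-receptor that presents ligand to the Tgfbr2 product. In the joint nodes it stood at 29.96, 30.4 and 31.8 CPM in WT Treg and at 197, 177 and 207 CPM in WT Tconv. Treg were lower by -2.69 ± 0.10 (joint nodes, adjusted p 2.1e-11) and -3.02 ± 0.11 (mesenteric node, adjusted p 2.6e-09) on the log2 scale, with no overlap. Tissue Treg were uneven: ileal Treg held 3.40, 39.5 and 15.2 CPM (WT) and 39.9, 5.30 and 3.59 CPM (TNFdARE), all below the ileal Tconv libraries (58.3 to 106 CPM). The ileal difference of -2.25 ± 0.63 had an adjusted p of 0.034, which rose to at most 0.075 on omission of 1 library (the call was lost for each of the 12 but Treg TNFdARE A, WT A and WT B). Libraries carry sample-sheet numbers, and those numbered 1 to 32 were set against 33 to 44 as a covariate. This split, called the sample-sheet pass, was inferred from the numbers, and none of the labels used here names it as a batch. In that fit the adjusted p of the ileal Tgfbr3 difference was 0.14. Synovial Treg held 215 and 75.4 CPM (WT) and 22.2, 63.2 and 0.0461 CPM (TNFdARE), on both sides of the synovial Tconv libraries. The fibroblast sum was 15960 and 12960 CPM in those WT libraries (A and B) and 4534, 6102 and 1440 CPM in the TNFdARE libraries (A, B and C), so the order of the Tgfbr3 levels followed it, and its part in the result was not tested. Other gene models lie inside Tgfbr3 on the same strand, the largest with 903 counts over all libraries against 70869 for Tgfbr3.

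Tgfb1 (ENSMUSG00000002603, chr7:25687002-25705077), the ligand, differed little. It stood at 148, 118 and 112 CPM in WT Treg of the joint nodes and at 92.1, 103 and 89.8 CPM in WT Tconv, and Treg were higher by 0.50 ± 0.09 on the log2 scale (adjusted p 0.00027). The mesenteric difference was 0.45 ± 0.11 (adjusted p 0.006), with overlapping libraries. In the ileum (0.06 ± 0.10, adjusted p 0.73) and the synovium (0.11 ± 0.26, adjusted p 1) Tgfb1 did not pass.

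Among the intracellular genes, Skil (ENSMUSG00000027660, chr3:31095058-31122577), which encodes the Smad repressor SnoN, was the clearest. It stood at 265, 247 and 275 CPM in WT Treg of the joint nodes and at 147, 124 and 158 CPM in WT Tconv, without overlap. Skil was higher in Treg by 0.82 ± 0.06 (joint nodes, adjusted p 8.2e-08), 0.70 ± 0.11 (mesenteric node, adjusted p 0.00022) and 0.57 ± 0.10 (ileum, adjusted p 0.0028) on the log2 scale, with overlapping libraries in the ileum but in neither node site. Smad3 (ENSMUSG00000032402, chr9:63646767-63757994, minus strand) passed in both node sites with opposite signs, at 0.30 ± 0.07 in the mesenteric node (adjusted p 0.0069) and -0.19 ± 0.06 in the joint nodes (adjusted p 0.024). The joint node value of Smad3 lost its call on omission of Tconv TNFdARE A, Tconv WT A, or either genotype's Treg B or Treg C (adjusted p up to 0.079), and the mesenteric value had an adjusted p of 0.35 in a fit of all 42 libraries. Smad7 (ENSMUSG00000025880), which encodes the inhibitory Smad, passed at no site (-0.20 ± 0.11 in the mesenteric node, -0.17 ± 0.09 in the joint nodes, 0.12 ± 0.12 in the ileum, 0.23 ± 0.16 in the synovium), and with the experiment letter as a replicate block its joint node value passed (-0.16, adjusted p 0.0076). Ski (ENSMUSG00000029050, chr4:155154075-155222592, minus strand), the other repressor, ran from 89.3 to 331 CPM over all libraries with wide spread within groups, and it passed at no site (adjusted p 0.19 to 0.97).

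**Figure D2:**
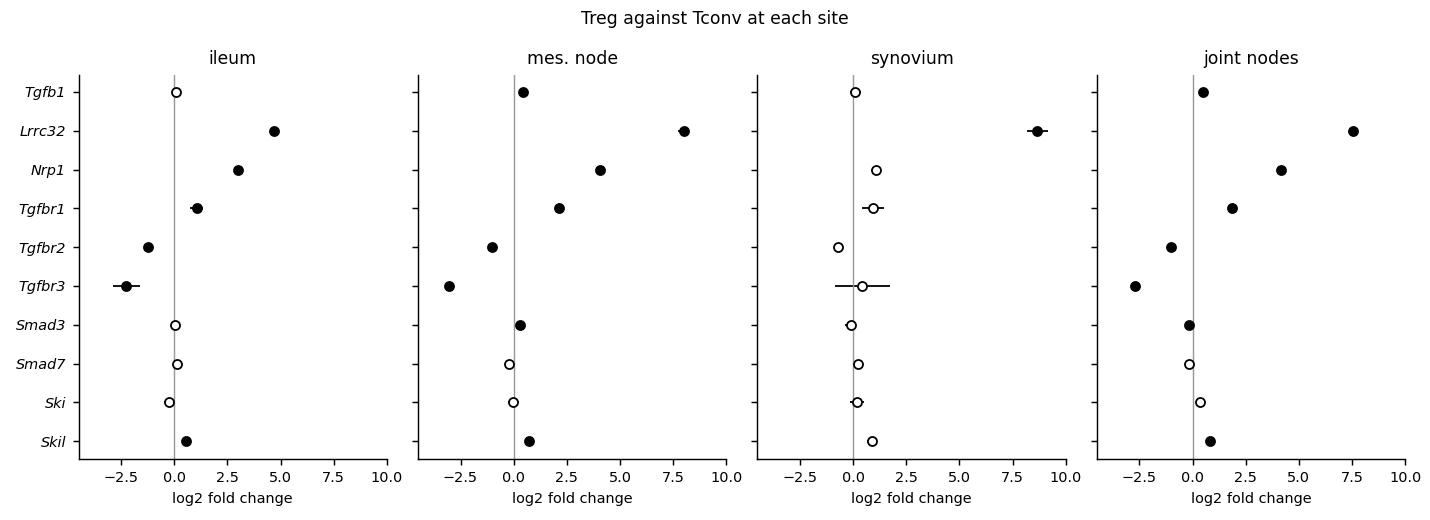
Fitted log2 fold change of Treg against Tconv for the 10 genes at each site, positive where Treg were higher, with bars of 1 SE; filled points passed an adjusted p of 0.05 and open points did not. Tgfbr1 lies to the right of 0 and Tgfbr2 to the left at every site, and the synovial Lrrc32 point rests on a WT Tconv library with no count.

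Of 44 other pathway genes, 37 could be tested in the joint nodes, and 12 were higher and 11 lower in Treg. Over all genes tested there, 22.1% passed as higher and 21.2% as lower. The same shares were 20.8% and 17.8% in the mesenteric node, 7.93% and 6.85% in the ileum, and 0.952% and 0.145% in the synovium. The 4 with the smallest p there included the CD103 chain Itgae (4.76 ± 0.16 on the log2 scale, adjusted p 1.5e-11), the integrin chain Itgb8 that frees latent ligand on Treg (4.64 ± 0.23, adjusted p 6.3e-10) and the corepressor Tgif1 (1.75 ± 0.08, adjusted p 4e-10), all higher, and the type I receptor Acvrl1 (-2.31 ± 0.10, adjusted p 1.1e-10), which was lower. In the mesenteric node 14 were higher and 8 lower of 36 tested, led by Itgae (4.99 ± 0.17, adjusted p 1.4e-09) and by Furin, the protease that cleaves the TGF-beta propeptide (1.35 ± 0.08, adjusted p 6.8e-08). In the ileum 8 were higher and 2 lower of 42, and there Furin was lower in Treg (-1.86 ± 0.11, adjusted p 2e-06), while Itgb8 was higher (2.96 ± 0.21, adjusted p 5.7e-06). In the synovium 5 were higher and 0 lower of 43, and of the 4 with the smallest p the protease Mmp14 (4.28 ± 0.52, adjusted p 0.016) and the ligand Tgfb3 (6.58 ± 0.99, adjusted p 0.032) stood beside fibroblast sums of 1440 to 15960 CPM in Treg and 240.0 to 1883 CPM in Tconv. In the nodes B cell markers moved with the sort as well, at 19.1 to 36.4 CPM over 5 genes in Treg and 2.49 to 8.57 CPM in Tconv. Plasma cell sums (165.7 to 233.2 CPM against 84.4 to 140.8 CPM) and epithelial sums (16.3 to 26.3 CPM against 2.48 to 6.26 CPM) were also higher in nodal Treg. Endothelial, CD8 and NK, and T cell sums were lower in Treg at both node sites, and none of these sums overlapped. The part of any of these cell types in these results was not tested.

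The gap between Treg and Tconv was smaller in the ileum than in the mesenteric node for both docking genes. Between the synovium and the joint nodes the main test showed this for Nrp1 and not for Lrrc32. For Lrrc32 the log2 gap was smaller in the ileum than in the mesenteric node by -3.30 ± 0.34 (adjusted p 5.2e-06). For Nrp1 it was smaller by -1.08 ± 0.22 in the ileum against the mesenteric node (adjusted p 0.0049) and by -3.08 ± 0.17 in the synovium against the joint nodes (adjusted p 2.1e-08). These were the members that passed of 10 in the 2 tests of the difference, 2 at the gut sites beside 6.25% of all genes and 1 at the joint sites beside 5.57%. For Lrrc32 at the joint sites the value was 1.13 ± 1.12 (adjusted p 0.74), and in TNFdARE alone, without the WT synovial Tconv library, it was -4.59 ± 0.36 (adjusted p 2.4e-06). The Nrp1 value there was -3.08 ± 0.23 without that library (adjusted p 1.5e-06). Of the other pathway genes 7 of 44 passed at the gut sites, led by Furin (-3.22 ± 0.14, adjusted p 1.8e-10), and 6 of 44 at the joint sites, led by Itgae (-3.22 ± 0.29, adjusted p 4.5e-06).

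Within each cell type, tissue was then set against its draining node. In Treg of the ileum against the mesenteric node 5 of the 10 genes passed, beside 29.2% of all genes. Lrrc32 (835 to 1013 CPM in WT ileum, 410.1 to 456 CPM in WT node) and Skil (539 to 643 CPM in WT ileum, 272 to 361 CPM in WT node) were higher in the ileum, each by 1.07 on the log2 scale (SE 0.11 and 0.12, adjusted p 1e-04 and 0.00014). Nrp1 was lower in ileal Treg by -0.99 ± 0.11 (adjusted p 0.00012), and the ileal and nodal libraries of none of these 3 genes overlapped. Tgfbr1 was lower by -1.24 ± 0.33 (adjusted p 0.02) and Tgfbr2 by -0.49 ± 0.11 (adjusted p 0.0079). The Tgfbr1 call was lost without TNFdARE mesenteric Treg of experiment B (-1.08, adjusted p 0.085), without both ileal Treg libraries of experiment A (-1.17, adjusted p 0.067) and with the sample-sheet pass (-0.86, adjusted p 0.11), and the Tgfbr2 call with the sample-sheet pass (-0.39, adjusted p 0.056). Smad3 did not pass (0.48 ± 0.21, adjusted p 0.11), but did with DESeq2 (0.53, adjusted p 0.04), voom (0.59, adjusted p 0.0071) and all 42 libraries (0.49, adjusted p 0.019). Ileal Treg held 15.4 to 2190 CPM over the fibroblast genes and mesenteric Treg 0.941 to 2.17 CPM, and the part of those cells was not tested.

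In Treg of the synovium against the joint nodes 4 of the 10 passed, beside 37.7% of all genes. Lrrc32 was lower in the synovium by -1.28 ± 0.15 (adjusted p 0.00013). Nrp1 was lower by -0.88 ± 0.14 (adjusted p 0.00095) and Tgfbr2 by -0.51 ± 0.14 (adjusted p 0.017). Skil was higher by 0.30 ± 0.09 (adjusted p 0.02), a call lost without synovial WT B or joint node TNFdARE A, WT B or TNFdARE C (adjusted p up to 0.059). Synovial and nodal libraries overlapped for all 4 genes. The median difference of the 10 genes was -0.37, beside -0.09 over all genes. Tgfb1, Tgfbr1 and Smad3 did not pass (adjusted p 0.051, 0.059 and 0.066), but did with DESeq2 (-0.40, -0.88 and 0.48, adjusted p 0.044, 0.029 and 0.023) and in a fit of all 42 libraries. For Tgfbr2 and Skil the sample-sheet pass as a covariate gave adjusted p of 0.087 and 0.098.

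In Tconv of the ileum against the mesenteric node 6 of the 10 passed, beside 61% of all genes. Lrrc32 was 20.7-fold higher in ileal Tconv (log2 4.37 ± 0.34, adjusted p 4.6e-07), from 0.168 to 5.37 CPM in the node to 12.04 to 86.0 CPM in the ileum. Skil (1.22 ± 0.10, adjusted p 6.9e-07), Smad3 (0.76 ± 0.06, adjusted p 7.7e-07) and Tgfb1 (0.45 ± 0.09, adjusted p 9e-04) were also higher in the ileum. Tgfbr3 (-0.70 ± 0.07, adjusted p 7.3e-06) and Tgfbr2 (-0.26 ± 0.06, adjusted p 0.0021) were lower. Nrp1 did not pass (0.09 ± 0.18, adjusted p 0.68). In a fit of all 42 libraries Tgfbr2 and Tgfbr3 did not pass (adjusted p 0.064 and 0.43). Foxp3 was higher in ileal Tconv too (1.82 ± 0.18, adjusted p 4e-06), and the Treg marker sum was 1635 to 3273 CPM there against 44.3 to 196 CPM in the node, with its part in the Lrrc32 result not tested. Foxp3 itself was 13.4 to 199.8 CPM in ileal Tconv, a small share of that sum.

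Synovial Tconv could be set against the joint nodes with replicates in TNFdARE mice alone, where 7 of the 10 passed, beside 31.3% of all genes. Lrrc32 rose from 4.94, 6.65 and 7.79 CPM in the nodes to 31.8 and 40.8 CPM in the synovium (log2 2.51 ± 0.39, adjusted p 0.0011). Nrp1 rose from 52.6, 52.6 and 57.1 CPM to 146 and 166 CPM (log2 1.55 ± 0.11, adjusted p 1.4e-05). Skil (1.00 ± 0.19, adjusted p 0.0035), Tgfb1 (0.60 ± 0.14, adjusted p 0.011) and Smad3 (0.45 ± 0.12, adjusted p 0.016) were higher in the synovium, while Tgfbr3 (-2.09 ± 0.11, adjusted p 1.7e-06) and Tgfbr2 (-0.71 ± 0.09, adjusted p 0.00029) were lower. Tgfbr1 was 0.435 ± 0.16 higher without passing (adjusted p 0.075), with 101 and 74.5 CPM in the synovium above 55.7, 68.3 and 73.2 CPM in the nodes. It passed with the replicate block (0.52, adjusted p 0.046), with DESeq2 (0.48, adjusted p 0.044) and without synovial Tconv of experiment B (0.64, adjusted p 0.013). Foxp3 was 615 and 619 CPM in these synovial Tconv libraries and 30.3 to 39 CPM in the nodes (log2 4.16 ± 0.14, adjusted p 2.5e-07). The 5 fibroblast genes summed to 899.7 and 1883 CPM in the synovial libraries, with none of the 5 at 0, and to 0.35 to 3.78 CPM in the nodal ones. The part of Foxp3-expressing cells and of stromal RNA in the 7 calls was not tested. The calls for Tgfb1 and Smad3 were lost without TNFdARE joint node Tconv of experiment C (adjusted p 0.077 and 0.096), that for Tgfb1 also without synovial Tconv of experiment B (adjusted p 0.052) and that for Smad3 also without synovial Tconv of experiment A (adjusted p 0.062).

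Across these 4 tissue comparisons more of the other pathway genes passed as higher in tissue than as lower. In ileal Treg 20 were higher and 2 lower of 43 tested (17% and 12.2% of all genes), and in synovial Treg 21 higher and 4 lower of 43 (19.2% and 18.5% of all genes). In ileal Tconv 26 were higher and 8 lower of 40 (34.3% and 26.7% of all genes), and in TNFdARE synovial Tconv 23 higher and 8 lower of 44 (17.2% and 14.1% of all genes). Tgif1, a corepressor of Smad proteins, was among the 4 with the smallest p in each (3.17 ± 0.12, 2.70 ± 0.16, 3.92 ± 0.17 and 3.58 ± 0.19 on the log2 scale). The matrix protein gene Ccn2 (9.14 ± 0.64) and the latent TGF-beta binding protein gene Ltbp4 (7.28 ± 0.57) were among the 4 in synovial Treg, where the fibroblast sum was 1440 to 15960 CPM against 0.736 to 3.25 CPM in nodal Treg. The part of stromal RNA in these counts was not tested.

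Setting TNFdARE against WT within each sort asks which of the 10 genes differ when Tnf transcripts are stabilised. In Tconv the docking genes Lrrc32 and Nrp1 passed as higher in TNFdARE at all 3 sites with replicates, and Skil in the joint nodes. In Treg Smad7 passed as higher in the ileum and the synovium, Tgfbr3 as lower in the mesenteric node, and Nrp1, Tgfbr1 and Skil as higher in the joint nodes. Tgfb1, Tgfbr2, Smad3 and Ski passed in none of the 7 comparisons by the main test. These lists do not show that sites differ, which was tested separately, and several members outside them passed under another tool or set of libraries. DESeq2 called more of all genes than edgeR in each comparison. Several listed calls were lost in other runs, among them Smad7 in ileal and synovial Treg and Tgfbr1 in joint node Treg.

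In Tconv 2 of the 10 genes passed in the ileum (beside 1.31% of all genes), 2 in the mesenteric node (2.36%) and 3 in the joint nodes (2.79%). Lrrc32 rose in ileal Tconv from 12.04, 18.7 and 12.98 CPM to 86.0, 44.8 and 42.8 CPM (3.99-fold, log2 2.00 ± 0.27, adjusted p 0.0032). It rose in mesenteric Tconv from 0.929, 0.168 and 0.345 CPM to 2.80 and 5.37 CPM (8.15-fold, log2 3.03 ± 0.42, adjusted p 0.0027). In the joint nodes Lrrc32 rose from 0.436, 1.10 and 1.38 CPM to 4.94, 6.65 and 7.79 CPM (6.95-fold, log2 2.80 ± 0.24, adjusted p 7.2e-06). Every TNFdARE library lay above every WT library at each site. Nodal levels were low in counts, from 4 to 25 in WT and from 66 to 201 in TNFdARE per library.

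Nrp1 rose in ileal Tconv from 9.56, 13.5 and 6.05 CPM to 73.4, 46.0 and 52.6 CPM (5.96-fold, log2 2.58 ± 0.26, adjusted p 0.00066). In mesenteric Tconv it rose from 13.9, 16.4 and 18.6 CPM to 30.2 and 30.2 CPM (1.82-fold, log2 0.86 ± 0.14, adjusted p 0.0073), a call lost in a fit of all 42 libraries (adjusted p 0.056). In joint node Tconv Nrp1 rose from 11.5, 12.7 and 13.7 CPM to 52.6, 52.6 and 57.1 CPM (4.32-fold, log2 2.11 ± 0.08, adjusted p 2.4e-09). The genotypes did not overlap at any of the 3 sites. Skil rose in joint node Tconv from 147, 124 and 158 CPM to 206, 207 and 215 CPM (log2 0.56 ± 0.09, adjusted p 0.002), also without overlap, and had an adjusted p of 0.17 in a fit of all 42 libraries. In ileal Tconv the Skil difference was 0.60 ± 0.14 (adjusted p 0.073), and it passed with the replicate block (0.59, adjusted p 0.035), DESeq2 (adjusted p 0.00083) and voom (adjusted p 0.0076).

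Further members separated the genotypes in ileal Tconv without passing the main test. Tgfb1 stood there at 111.6, 97.8 and 97.3 CPM in WT and 134, 136 and 158.5 CPM in TNFdARE (log2 0.50 ± 0.15, adjusted p 0.21), and it passed with DESeq2 (adjusted p 0.033), voom (adjusted p 0.0083) and a fit of those 2 groups alone (adjusted p 0.042). Smad3 stood at 93.6, 98.99 and 94.01 CPM in WT and 147.5, 129.7 and 128 CPM in TNFdARE (log2 0.51 ± 0.26, adjusted p 0.77), and it passed with voom (adjusted p 0.017) and in the fit of 2 groups (adjusted p 0.015). Tgfbr3 lay the other way, at 105.6, 106 and 99.7 CPM in WT and 69.6, 58.3 and 75.6 CPM in TNFdARE (log2 -0.60 ± 0.84, adjusted p 1), and passed in the fit of 2 groups alone (adjusted p 0.024). None of these 3 genes overlapped between genotypes. How many of all genes do the same was not counted, here or in the other comparisons, so lack of overlap describes the values only.

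Foxp3 and the sum of 4 Treg markers moved with Lrrc32 and Nrp1 in Tconv. Foxp3 rose by 3.18 ± 0.22 in the ileum (adjusted p 6e-05), 2.10 ± 0.17 in the mesenteric node (adjusted p 6.3e-05) and 2.38 ± 0.11 in the joint nodes (adjusted p 2.5e-08) on the log2 scale. The sum of the 4 Treg markers went from 1635 to 1823 CPM in WT ileal Tconv to 2853 to 3273 CPM in TNFdARE. In the mesenteric node it went from 44.3 to 71.0 CPM to 115 to 196 CPM, and in the joint nodes from 31.4 to 38.96 CPM to 93.4 to 119.7 CPM, with no marker at 0 in any Tconv library. As a percent of the mean Treg level of the same site and genotype, Foxp3 in joint node Tconv was 0.599% in WT and 3.05% in TNFdARE, Lrrc32 0.195% and 1.51%, and Nrp1 3.79% and 8.66%. In the ileum Foxp3 was at 1.41% and 9.41%, Lrrc32 at 1.60% and 9.33%, and Nrp1 at 7.09% and 22.4%. The other markers of the sum stood above Foxp3 there, with Ctla4 at 43.4% and 76.0%, Ikzf2 at 17.3% and 27.1% and Il2ra at 11.6% and 17.4%. The ileal sum thus does not follow Foxp3 alone. In TNFdARE synovial Tconv Foxp3 reached 43.7%, Lrrc32 35.4% and Nrp1 71.4% of the Treg level. The part of Foxp3-expressing cells in the Tconv gate was not tested.

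**Figure D3:**
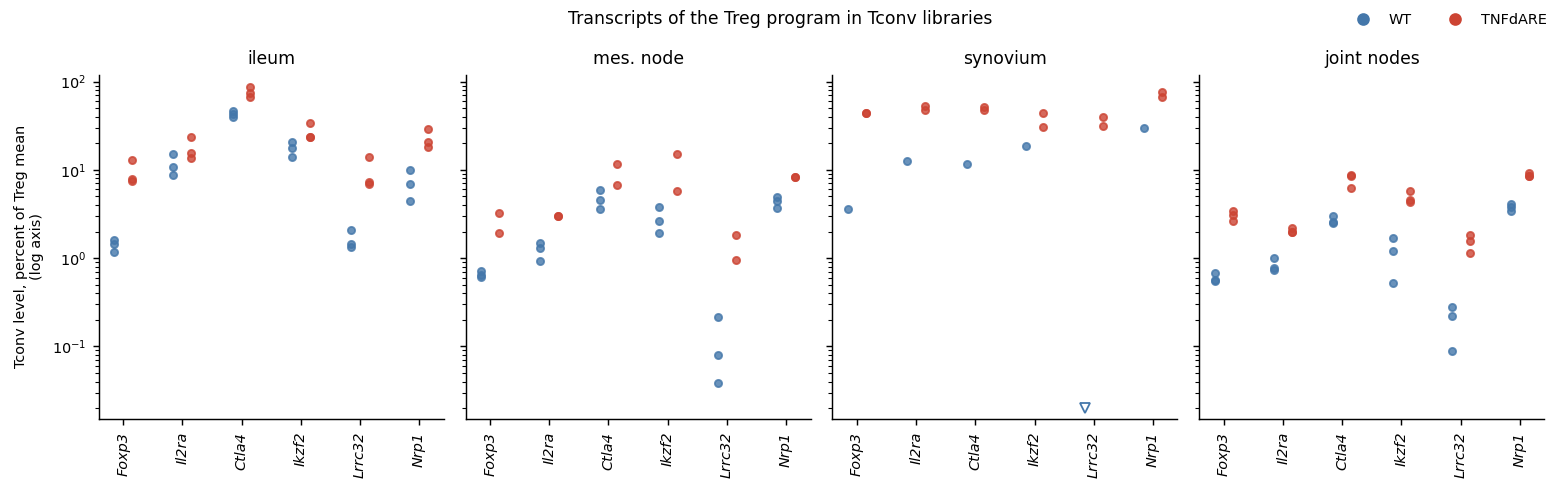
Level of 6 Treg-associated transcripts in each Tconv library as a percent of the mean Treg level of the same site and genotype, on a log axis (blue WT, red TNFdARE); the open triangle marks the WT synovial library with no Lrrc32 count and does not show a value. TNFdARE points lie above all WT points of the same gene and site, except for Il2ra in the ileum, where they overlap.

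In Treg 1 of the 10 genes passed in the ileum (beside 0.729% of all genes), 1 in the mesenteric node (5.68%), 1 in the synovium (0.156%) and 3 in the joint nodes (5.7%). Smad7, whose product feeds back on the receptor, stood in ileal Treg at 109, 183 and 119.6 CPM in WT and at 225, 312 and 247 CPM in TNFdARE. The genotypes did not overlap, and Smad7 was 1.88-fold higher in TNFdARE (log2 0.91 ± 0.17, adjusted p 0.04). That ileal call was lost on omission of 4 of the 6 libraries in turn (WT A or C, TNFdARE B or C, adjusted p up to 0.13), without both libraries of experiment A (adjusted p 0.062) and in a fit of those 2 groups alone (adjusted p 0.46). Tgfbr3 in ileal Treg did not pass (-0.25 ± 0.85, adjusted p 0.94), but without both libraries of experiment A, which held the most plasma cell RNA, it was lower in TNFdARE (-2.58, adjusted p 0.031). Lrrc32 in ileal Treg did not overlap between genotypes, at 647, 523 and 689 CPM in TNFdARE against 1013, 883 and 835 CPM in WT, and did not pass (-0.58 ± 0.25, adjusted p 0.36). Nrp1 did not overlap in ileal Treg either, at 139, 155.5 and 116 CPM in WT and 249, 232 and 286 CPM in TNFdARE. Its difference of 0.88 ± 0.24 did not pass (adjusted p 0.15), but did with DESeq2 (0.87, adjusted p 0.014) and in a fit of all 42 libraries (0.90, adjusted p 0.011).

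In synovial Treg Smad7 stood at 91.6 and 111 CPM in WT and at 302, 286 and 336 CPM in TNFdARE. It was 3.08-fold higher in TNFdARE (log2 1.62 ± 0.20, adjusted p 0.048), and the libraries were far from overlapping. With the replicate block the value was 1.56 and the adjusted p 0.47, with the sample-sheet pass 1.67 and 0.12, and omission of any of 4 of the 5 Treg libraries raised the adjusted p to between 0.11 and 0.16. Lrrc32 went the other way there, at 446.5 and 276 CPM in WT and 119.9, 106 and 82.6 CPM in TNFdARE, without overlap. Its difference of -1.79 ± 0.28 did not pass (adjusted p 0.08), but did with DESeq2 (-1.87, adjusted p 1.2e-06) and without WT Treg of experiment B (-2.12, adjusted p 0.0099). The fibroblast sum also separated these groups, at 15960 and 12960 CPM in WT and 1440 to 6102 CPM in TNFdARE with none of the 5 genes at 0, and its part in the synovial Treg values was not tested. Skil stood at 256 and 299.6 CPM in WT and 456, 556 and 531 CPM in TNFdARE synovial Treg, without overlap. It did not pass (0.91 ± 0.25, adjusted p 0.3), but did with DESeq2 (0.84, adjusted p 0.039) and in a fit of all 42 libraries (0.89, adjusted p 0.00075).

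**Figure D4:**
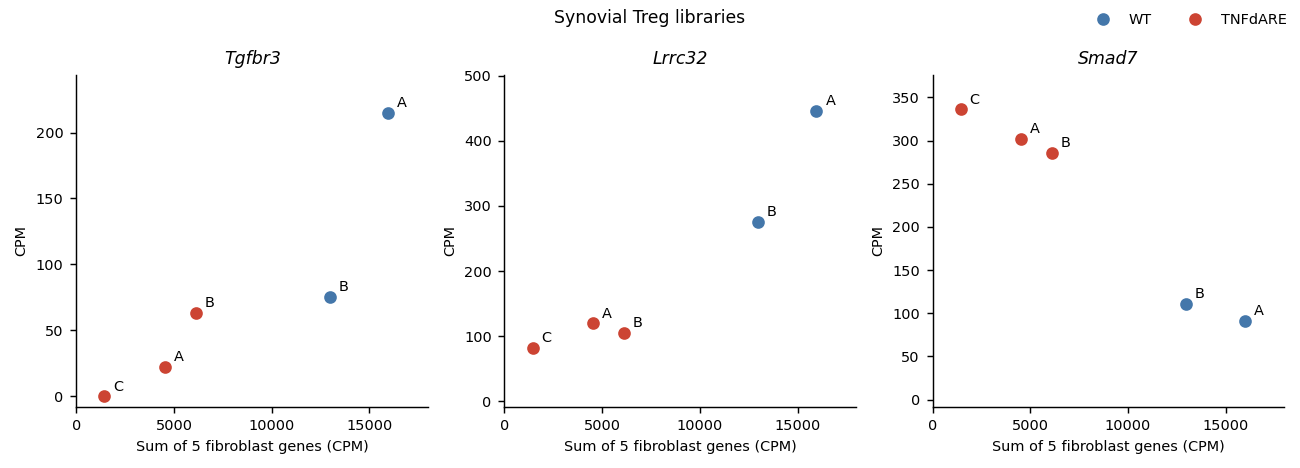
CPM of Tgfbr3, Lrrc32 and Smad7 in each synovial Treg library against the summed CPM of 5 fibroblast genes (Dcn, Col1a1, Col1a2, Col3a1 and Pdgfra), with the experiment letter beside each point (blue WT, red TNFdARE). The WT libraries lie at 12960 and 15960 CPM on the x axis and the TNFdARE libraries at 1440 to 6102 CPM, so genotype and fibroblast RNA cannot be told apart here.

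In Treg of the joint nodes Nrp1 stood at 325, 328 and 347 CPM in WT and at 617, 619 and 639 CPM in TNFdARE. The groups lay well apart and tight, and Nrp1 was 1.87-fold higher in TNFdARE (log2 0.90 ± 0.07, adjusted p 4.6e-06), a call that held in each alternative run. Summed markers separated these groups without overlap too. The CD8 and NK markers gave 12.6 to 17.4 CPM in WT and 21.7 to 24.1 CPM in TNFdARE, the B cell markers 19.1 to 20.9 CPM and 24.7 to 26.6 CPM, the plasma cell markers 175 to 190 CPM and 166 to 170.5 CPM, the endothelial markers 210.3 to 241 CPM and 161 to 182 CPM, and the 4 Treg markers 3075 to 3193 CPM and 2786 to 2841 CPM. The part of these in the joint node Treg results was not tested. Tgfbr1 was higher at 270.3, 292 and 246 CPM against 176, 184 and 230.3 CPM (log2 0.45 ± 0.12, adjusted p 0.035), and Skil at 334, 392 and 323 CPM against 265, 247 and 275 CPM (log2 0.41 ± 0.09, adjusted p 0.014). On omission of 1 library the Tgfbr1 call was lost in 5 of 6 cases (adjusted p up to 0.19), with WT C the exception, and the Skil call without WT B (adjusted p 0.099) or TNFdARE B (adjusted p 0.079). In a fit of all 42 libraries neither passed (adjusted p 1 for Tgfbr1 and 0.65 for Skil). Tgfbr2 was 0.21 ± 0.07 higher without passing (adjusted p 0.1), and passed with the replicate block (0.21, adjusted p 0.041). In Treg of the mesenteric node Tgfbr3 fell from 24.4, 28.5 and 25 CPM in WT to 13.2 and 8.34 CPM in TNFdARE (2.32-fold lower, log2 -1.22 ± 0.16, adjusted p 0.0011), and had an adjusted p of 1 in a fit of all 42 libraries. Lrrc32 in mesenteric Treg, at 410.1, 428 and 456 CPM in WT and 251 and 342.5 CPM in TNFdARE, did not pass (-0.49 ± 0.23, adjusted p 0.27), but did with voom (-0.50, adjusted p 0.037) and without a filter (-0.51, adjusted p 0.00019). In mesenteric Tconv the Tgfbr3 value was -0.53 ± 0.14 (adjusted p 0.09), and it passed with the replicate block (-0.55, adjusted p 0.036).

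The genes that did not pass still set limits. Tgfb1 in ileal Treg stood at 98.6, 114.5 and 93.3 CPM in WT and 121, 183 and 161 CPM in TNFdARE, without overlap (0.58 ± 0.15, adjusted p 0.12), and passed with DESeq2 (adjusted p 0.0092) and without TNFdARE A (adjusted p 0.022). In the nodes its differences were near 0, from -0.22 ± 0.15 in mesenteric Tconv to 0.15 ± 0.12 in joint node Treg. Smad3 was 0.84 ± 0.26 higher in ileal Treg (adjusted p 0.19) and 0.86 ± 0.33 higher in synovial Treg (adjusted p 0.46) without passing, and without overlap in either. In ileal Treg Smad3 passed with DESeq2 (0.83, adjusted p 0.038) and in a fit of all 42 libraries (0.86, adjusted p 0.03), and in synovial Treg in the fit of all 42 libraries (0.83, adjusted p 0.016). Ski differences ran from -0.64 ± 0.37 in mesenteric Treg to 0.71 ± 0.36 in ileal Tconv, and none passed (adjusted p 0.39 to 0.99). Without a filter on low counts Ski passed in mesenteric Treg (-0.66, adjusted p 3.1e-07), mesenteric Tconv (0.59, adjusted p 5e-06) and joint node Tconv (0.61, adjusted p 2.7e-07), while its libraries overlapped between genotypes in the first and the last of these. The mesenteric Treg value of Ski also passed without WT Treg of experiment B (-0.99, adjusted p 0.046).

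**Figure D5:**
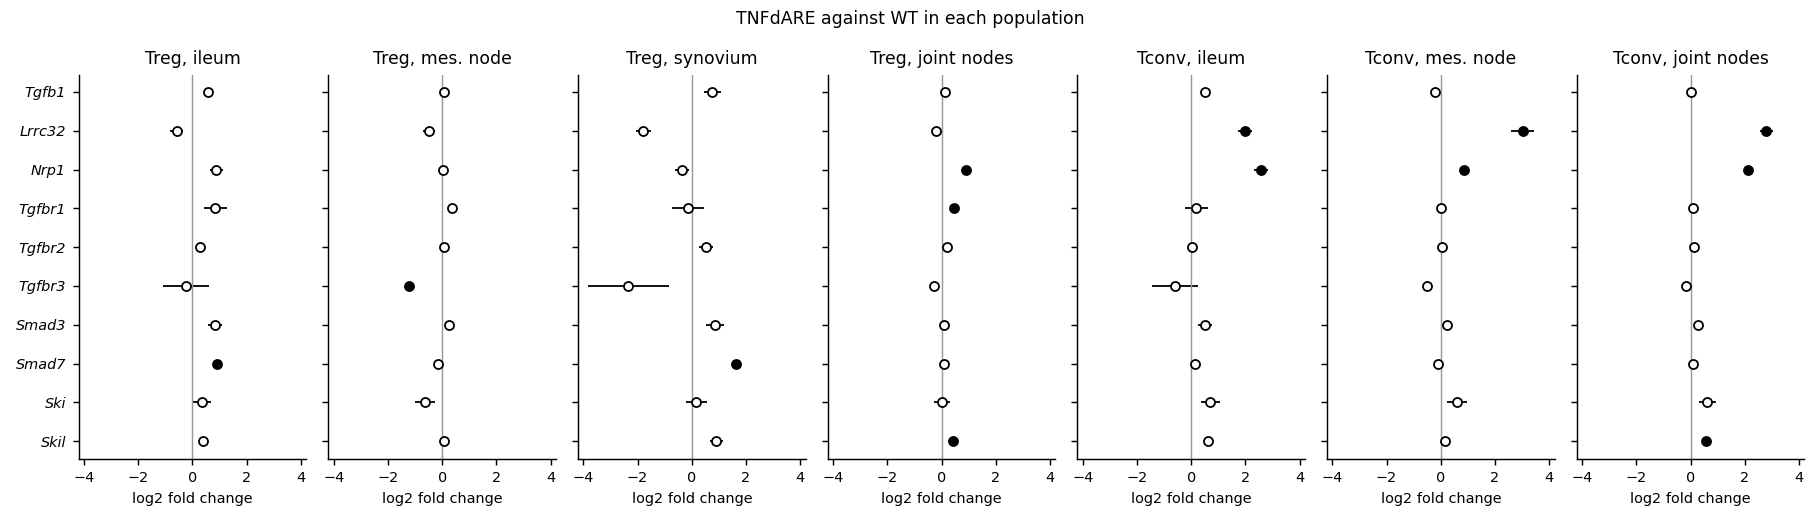
Fitted log2 fold change of TNFdARE against WT for the 10 genes in each of the 7 sorted populations with replicates on both sides, positive where TNFdARE was higher, with bars of 1 SE; filled points passed an adjusted p of 0.05. Lrrc32 and Nrp1 lie to the right of 0 in all 3 Tconv panels, and Smad7 passes in 2 Treg panels.

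The 44 other pathway genes are given beside the share of all genes that passed the same test. In Treg 1 of 42 tested was higher in the ileum (0.729% of all genes passed), 3 were higher and 1 lower of 36 in the mesenteric node (5.68%), and 4 higher and 1 lower of 37 in the joint nodes (5.7%). In synovial Treg 0 of 43 passed by edgeR (0.156% of all genes), with 10 at an unadjusted p below 0.05, 8 called by DESeq2 and 0 by voom. In Tconv 2 of 42 were higher in the ileum (1.31% of all genes passed), 4 higher and 1 lower of 36 in the mesenteric node (2.36%), and 5 higher and 1 lower of 37 in the joint nodes (2.79%). The median log2 difference of the list lay between -0.12 and 0.13 in these 7 comparisons. Itgae, the CD103 chain known to be induced by TGF-beta, was higher in Treg of the ileum (1.23 ± 0.24, adjusted p 0.043), mesenteric node (1.90 ± 0.19, adjusted p 0.00022) and joint nodes (1.40 ± 0.20, adjusted p 0.00071) on the log2 scale. In Tconv Itgae was higher by 1.52 ± 0.24, 2.31 ± 0.21 and 2.21 ± 0.22 at the same sites (adjusted p 0.0089, 0.00012 and 3.5e-05). Pmepa1, a feedback inhibitor of TGF-beta signalling, was higher in joint node Treg (1.16 ± 0.13, adjusted p 7.9e-05) and Tconv (1.41 ± 0.13, adjusted p 1.8e-05) and in mesenteric Tconv (0.91 ± 0.16, adjusted p 0.011). Acvrl1 was lower in joint node Treg (-0.73 ± 0.14, adjusted p 0.0072) and in Tconv of the mesenteric node (-0.94 ± 0.18, adjusted p 0.019) and joint nodes (-0.97 ± 0.13, adjusted p 0.00036).

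Whether the genotype difference itself differed between sorts was tested at 3 sites. For Lrrc32 the difference was lower in Treg than in Tconv by -3.52 ± 0.48 in the mesenteric node (adjusted p 0.019) and by -3.02 ± 0.28 in the joint nodes (adjusted p 0.00015). The signs were opposite, since Tconv means were higher in TNFdARE and Treg means lower. Treg means went from 431.5 CPM in WT to 296.7 CPM (mesenteric) and from 497.9 to 429.1 CPM (joint), without passing. WT Tconv of these nodes held 4 to 25 Lrrc32 counts per library. In the ileum the Lrrc32 value was -2.58 ± 0.36 (adjusted p 0.054), and it passed with the replicate block (-2.52, adjusted p 0.049). For Nrp1 the difference was smaller in Treg by -1.21 ± 0.10 in the joint nodes (adjusted p 6.5e-05), while the mesenteric value of -0.85 ± 0.20 did not pass (adjusted p 0.16, with the block -0.87 and 0.039). Thus 0 of the 10 passed in the ileum by edgeR (3 at an unadjusted p below 0.05, 2 by DESeq2, 0 by voom), 1 in the mesenteric node and 2 in the joint nodes, beside 0.0188%, 0.209% and 0.449% of all genes. The mesenteric Lrrc32 call was lost without Treg WT B, Treg TNFdARE B or Tconv TNFdARE C (adjusted p up to 0.065), and the joint node Nrp1 call in a fit of all 42 libraries (adjusted p 0.19).

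Whether the genotype difference in 1 sort differed between sites was tested 4 times, and these tests were chosen after the data were seen. Between the synovium and the joint nodes 3 of the 10 passed in Treg, beside 1.7% of all genes: Smad7 (1.47 ± 0.21, adjusted p 0.013), Lrrc32 (-1.62 ± 0.28, adjusted p 0.026) and Nrp1 (-1.33 ± 0.27, adjusted p 0.044). With the replicate block none of these 3 passed (adjusted p 0.055, 0.063 and 0.1), and each call was lost on some omission of 1 library (Smad7 in 2 of 11 cases, Lrrc32 in 6, Nrp1 in 8). Between the joint and the mesenteric nodes Nrp1 passed in Treg (0.90 ± 0.15, adjusted p 0.024, with adjusted p up to 0.097 on omission of 1 library), 1 of 10 beside 0.351% of all genes. Between the ileum and the mesenteric node 0 of the 10 passed in Treg by edgeR (2 at an unadjusted p below 0.05, 2 by DESeq2, 0 by voom), beside 0.00598% of all genes. Between the joint and mesenteric nodes 0 passed in Tconv by edgeR (3 at an unadjusted p below 0.05, 1 by DESeq2, 0 by voom), where 0% of all genes passed (482 at an unadjusted p below 0.05, 7 by DESeq2). Nrp1 in Tconv was the gene that passed there with the replicate block (1.27, adjusted p 0.019).

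Other transcripts followed some of the 10 closely across the 16 group means of log2 CPM, among 8481 genes with a mean of at least 3. These are correlations over groups that share libraries and depth, given as a description. The closest to Skil was Nfkb1 (Pearson's r 0.981), followed by Bmp2k (0.953) and Slc35f6 (0.944). Lrrc32 was closest to Vav2 (0.952), Tmem158 (0.938) and Gbp3 (0.931), and Nrp1 to Pglyrp1 (0.952), Phtf2 (0.931) and Calhm2 (0.931). Tgfbr2 was closest to Tbcel (0.952) and Tgfbr1 to Zdhhc20 (0.925), and no gene came closer to Ski than Ift52 (0.771).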

How the data were processed

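RNA was isolated from sorted cells, converted to full-length cDNA with SMART-Seq v4 PLUS from 100 pg or 2 ng of input and sequenced as single reads, per the labels' protocols; which library had which input is not given in the sources used here. The authors trimmed with cutadapt 1.15 and aligned with Bowtie2 2.3.3.1 to GRCm38, per the submitters' processing notes; the counting tool and its strand setting are not given in the sources used here. The authors deposited raw counts per Ensembl gene (46603 genes, 42 libraries, symbols matched for 46005 from GENCODE M21) and a table of FPKM for 18964 genes, whose normalisation is not given in the sources used here. That FPKM table, deposited by the authors, holds no 0, and 97.2% of its genes have a value repeated in 2 or more libraries, so it was used only to order genes by level.

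Counts were tested with edgeR 4.0.16 in R 4.3.3 (trimmed-mean factors, filterByExpr, glmQLFit and glmQLFTest) over all groups of the sites compared, with 1 mean per group, genotypes weighted equally, and Benjamini-Hochberg adjustment over all genes tested. The standard error is the log2 fold change divided by the root of F. CPM used trimmed-mean library sizes of all 42 libraries, and levels on a log scale used log2(CPM + 0.5). A gene at 0 was given a floor of 3 counts over the group. Simulated counts with known changes were used as a check only for genotype in joint node Treg and for Treg against Tconv in the ileum. The synovial fits and the interaction tests were not checked in this way. Alternatives were DESeq2 1.42.0, limma 3.58.1 (voom with quality weights), RLE factors, no filter on low counts, only the groups compared, all 42 libraries, the sample-sheet pass, the experiment letter as a replicate block, and omission of each library.

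The split called the sample-sheet pass was inferred from library numbers, and the labels used here do not name it as a batch. The letter marks a shared experiment, per the labels. Libraries with the same letter were taken as paired only in the replicate block, which lost 4 calls and gained 8. Deviations of same-letter WT and TNFdARE libraries from their group means correlated at -0.393 to 0.436 over genes (median 0.121, above 0.1 in 11 of 18 pairs). Treg and Tconv libraries of the same letter were not compared in this way. The block was not part of the main fit, whose p-values take libraries as unpaired.

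The genes named are the 10 members, Foxp3, up to 4 passing pathway genes with the smallest p per comparison, and up to 3 genes of most similar pattern; Itgae, Pmepa1, Acvrl1 and Furin recur by that rule. The members and lists were chosen with earlier results of these data known. The 4 tests of genotype between sites, the omission of both ileal Treg libraries of experiment A and the TNFdARE-only synovial fit were chosen after the data were seen. RefSeq's table held promoters for 6 of the 10 genes.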

Additional observations from a re-analysis of the deposited data

Results flagged for a closer look

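Several genotype or sort differences themselves differed between groups by an interaction test. The genotype difference of Lrrc32 was lower in Treg than in Tconv by -3.52 in the mesenteric node and -3.02 in the joint nodes on the log2 scale. Its Treg means were lower in TNFdARE there and its Tconv means higher. The genotype difference of Nrp1 was smaller in Treg by -1.21 in the joint nodes. The gap between Treg and Tconv was smaller in the ileum than in the mesenteric node by -3.30 for Lrrc32 and -1.08 for Nrp1, and smaller in the synovium than in the joint nodes by -3.08 for Nrp1. Between the synovium and the joint nodes the genotype difference in Treg differed by -1.62 for Lrrc32, -1.33 for Nrp1 and 1.47 for Smad7. Between the joint and mesenteric nodes that of Nrp1 in Treg differed by 0.90. These tests of genotype between sites were chosen after the data were seen, and each call was lost on some omission of a single library. None of the values for genotype between the synovium and the joint nodes passed with the replicate block or voom. In synovial Treg, genotype and fibroblast RNA cannot be told apart.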

How the results depend on the processing

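Over 24 comparisons 68 of 240 member results passed, and 41 of these kept their call in every alternative run. The replicate block lost 4 calls and gained 8, DESeq2 lost 0 and gained 25, voom lost 10 and gained 9, and the fit of all 42 libraries lost 13 and gained 17. Single omissions lost 16 of the calls. The causes of these changes were not tested.

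Calls over all genes moved with the tool too, and DESeq2 called more genes than edgeR in every comparison. For Treg against Tconv in the synovium edgeR called 197 genes, DESeq2 1591 and voom 41. For genotype in ileal Treg these were 116, 729 and 25, and in synovial Treg 28, 932 and 1. For genotype in ileal Tconv edgeR called 208, DESeq2 556 and voom 1024. Members passing changed as follows. For Treg against Tconv in the synovium, 1 became 4 with DESeq2 or all 42 libraries, 2 without a filter, 0 with voom and 0 in TNFdARE alone (1 to 3 on omission of 1 library). For genotype in ileal Treg, 1 became 4 with DESeq2, 3 with all libraries, 0 with voom or only the groups compared (omissions 0 to 2). In mesenteric Treg, 1 became 4 without a filter, 2 with voom and 0 with all libraries (omissions 1 to 2). In synovial Treg, 1 became 0 with the replicate block, voom, only the groups compared or the sample-sheet pass, 3 with DESeq2, 2 without a filter and 6 with all libraries (omissions 0 to 3). In joint node Treg, 3 became 1 with all libraries (omissions 1 to 3). In ileal Tconv, 2 became 4 with DESeq2, 5 with voom and 6 with only the groups compared, and in mesenteric Tconv 4 without a filter and 1 with all libraries. For synovial against nodal Treg, 4 became 7 with DESeq2 or all libraries and 2 with voom or the sample-sheet pass.

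For genotype between sorts, 0 in the ileum became 1 with the replicate block or no filter and 2 with DESeq2 or all libraries (omissions 0 to 1), 1 in the mesenteric node became 2 with the block or DESeq2, 4 without a filter and 0 with voom (omissions 0 to 2), and 2 in the joint nodes became 1 with all libraries. For the sort gap between tissue and node, omissions gave 2 to 4 at the gut sites, and at the joint sites 1 became 2 with DESeq2, no filter, all libraries or TNFdARE alone (omissions 1 to 3). In TNFdARE alone the Lrrc32 value at the joint sites turned from 1.13 to -4.59. For genotype between sites, Treg of ileum and mesenteric node went from 0 to 2 with DESeq2, and Treg of synovium and joint nodes from 3 to 0 with the block or voom and 1 with the sample-sheet pass (omissions 0 to 5). Treg of joint and mesenteric nodes went from 1 to 3 without a filter and 0 with all libraries (omissions 0 to 1), and Tconv of these nodes from 0 to 1 with the block, DESeq2 or no filter (omissions 0 to 1).

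Where 1 group held a single library, its spread was assumed equal to that of the other groups. Depth limits Lrrc32 in nodal WT Tconv, where libraries held 4 to 25 counts.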
